A study of Homo sapiens with 6 samples.

Results

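The genes described here are 34 genes that act in G2 and mitosis, chosen by symbol from a list of cell cycle regulators, spindle checkpoint proteins, kinetochore proteins, motors and cytokinesis factors. All 34 were found once each among the 20035 genes of the deposited table. RNA was sequenced from HaCaT, an immortalized line of human keratinocytes labelled wild type, in 3 control libraries with no treatment and 3 libraries given palmatine, a plant alkaloid of the protoberberine class. The series describes stimulation of HaCaT cells with IL-17, but the labels of the single libraries do not name it, so whether either group received IL-17 is not known here, and neither are the dose and duration of palmatine. Since nothing states that the replicates are separate cultures, p-values cover only the variation among these 6 libraries, and that may be technical.

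Mitotic genes are transcribed in a wave that starts in late S phase and peaks in G2 and M. In resting and G1 cells the DREAM complex represses many of them through a promoter element called the cell cycle genes homology region, and later the MuvB core works with B-MYB (MYBL2) and FOXM1 to activate them. Many of these promoters also carry CCAAT boxes, which bind the factor NF-Y. Their proteins are largely destroyed at the end of mitosis by the anaphase-promoting complex (APC/C), a ubiquitin ligase. In epidermis the transcripts mark dividing basal cells, and the keratinocyte hyperproliferation of psoriasis is one reason to look at them in this line.

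The promoter windows of 6 of these genes are printed because they carry these elements in different arrangements. RefSeq promoters (GRCh38.p14, 250 bases before to 50 after each gene's start) were available for 28 of the 34 genes, as 37 promoters in all. Each printed window is the 130 bases before the start, 5′ to 3′ on the gene's own strand. Capitals mark the homology region letters (TTTGAA or TTCGAA) and CCAAT, searched on both strands, so that ATTGG is a CCAAT on the opposite strand. The windows are those of the cyclin B1 gene CCNB1 at chr5:69167020-69167149 (+), the cyclin B2 gene CCNB2 at chr15:59105016-59105145 (+), the polo-like kinase gene PLK1 at chr16:23678759-23678888 (+), the APC/C coactivator gene CDC20 at chr1:43358851-43358980 (+), the Ki-67 gene MKI67 at chr10:128126424-128126553 (-) and the midzone crosslinker gene PRC1 at chr15:90994536-90994665 (-).
CCNB1: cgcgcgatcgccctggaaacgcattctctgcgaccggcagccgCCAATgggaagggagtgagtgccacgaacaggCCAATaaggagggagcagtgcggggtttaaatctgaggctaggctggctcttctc
CCNB2: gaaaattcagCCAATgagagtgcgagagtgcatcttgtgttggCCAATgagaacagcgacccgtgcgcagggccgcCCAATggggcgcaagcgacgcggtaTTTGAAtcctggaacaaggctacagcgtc
PLK1: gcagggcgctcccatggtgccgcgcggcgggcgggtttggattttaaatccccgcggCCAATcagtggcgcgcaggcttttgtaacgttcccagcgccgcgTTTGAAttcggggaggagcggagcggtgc
CDC20: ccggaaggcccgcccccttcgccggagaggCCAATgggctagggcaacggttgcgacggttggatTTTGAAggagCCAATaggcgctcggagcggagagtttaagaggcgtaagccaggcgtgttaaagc
MKI67: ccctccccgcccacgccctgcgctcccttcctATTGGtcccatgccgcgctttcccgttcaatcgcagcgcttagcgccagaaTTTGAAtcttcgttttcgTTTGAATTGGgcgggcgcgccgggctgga
PRC1: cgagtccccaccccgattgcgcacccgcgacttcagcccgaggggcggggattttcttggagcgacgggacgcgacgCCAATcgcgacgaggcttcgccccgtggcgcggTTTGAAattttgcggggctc

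In CCNB2 and PLK1 the TTTGAA match begins 29 bases before the start. CCNB2 holds 3 CCAAT boxes upstream of it, 120, 87 and 54 bases before the start, and PLK1 holds 1. MKI67 has 2 TTTGAA matches, the nearer of which shares its last base with a reverse CCAAT. CCNB1 holds 2 CCAAT boxes and neither TTTGAA nor TTCGAA in the printed window, which says only that these letters are not there.

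TTTGAA or TTCGAA was found in 67.6% of the 37 promoters of these genes, against 13.7% of the 21519 promoters of all genes in the table and 6.06% of the 66 promoters of a list of G1/S and DNA replication genes. The 73 promoters of other mitotic genes, the most similar list, held it nearly as often, at 64.4%. CCAAT was found in 73.0% of the members' promoters, 67.1% of those of other mitotic genes, 34.9% of those of all genes in the table and 53.0% of those of G1/S genes. Both elements together were in 56.8% of the members' promoters, 46.6% of those of other mitotic genes and 5.54% of those of all genes in the table. By gene, 22 of the 28 had TTTGAA or TTCGAA in at least 1 promoter. AURKB, CCNA2, CCNB1, CENPE, KIF20A and KIF2C had neither. Other spellings of the element were not searched. A match is a description of the letters and not a test of binding.

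Markers of keratinocytes were present in every library. Total counts ran from 12908646 to 17218171 per library, and the mitotic genes took 0.678% ± 0.0351 (SD, n = 3) of all counts in control libraries. With palmatine they took 0.700% ± 0.0376 (SD, n = 3), and the groups overlapped. Such a share weights each gene by its counts, so its direction can differ from that of the median gene given below. All 13 keratinocyte markers had counts in every library. Their summed level was 10915 to 11539 CPM (counts scaled to a common library size) in control and 11813 to 12150 CPM in palmatine libraries. These sums use total counts and follow the markers with the most counts. In the edgeR comparison used below, 7 of the 13 were positive and 6 negative, and 0 passed. Summed fibroblast markers (6 genes) stayed at 2.56 to 4.90 CPM in control and 4.22 to 6.04 CPM in palmatine libraries, with 1 gene at 0 throughout. Melanocyte markers (5 genes, 2 at 0) summed to 5.15 to 7.20 CPM in control and 6.66 to 7.20 CPM in palmatine libraries, and immune markers (6 genes, 2 at 0) to 3.11 to 3.72 and 3.08 to 3.30 CPM. Their part in the results below was not tested.

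Per gene length, the mitotic genes spanned nearly 3 orders of magnitude, but that span rests on PRC1 and NUSAP1, whose counts are uncertain. The level of a gene is given here as FPKM, the authors' count divided by gene length and library total, as a mean ± SD over all 6 libraries. The other 32 genes ran from 2.83 to 171 FPKM. TOP2A, the topoisomerase that untangles sister chromatids, was highest at 171 ± 24.4 FPKM, followed by TPX2, an activator of Aurora A on spindle microtubules, at 134 ± 2.66 FPKM. CCNB1, which activates CDK1 at mitotic entry, stood at 120 ± 10.8 FPKM, and UBE2C, the ubiquitin-conjugating enzyme of the APC/C, at 109 ± 10.2 FPKM. CDC20, which brings substrates to the APC/C, was next at 96.0 ± 5.03 FPKM.

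Near the lower end, CDC25C, a phosphatase that activates CDK1, was at 9.51 ± 0.806 FPKM and CENPE, a kinesin of the kinetochore, at 2.83 ± 0.722 FPKM. PRC1, which crosslinks antiparallel microtubules in the anaphase midzone, and NUSAP1, a spindle microtubule-binding protein, stood more than 10 times below every other member. PRC1 was listed at 0.269 ± 0.0605 FPKM and NUSAP1 at 0.199 ± 0.0214 FPKM.

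**Figure D1:**
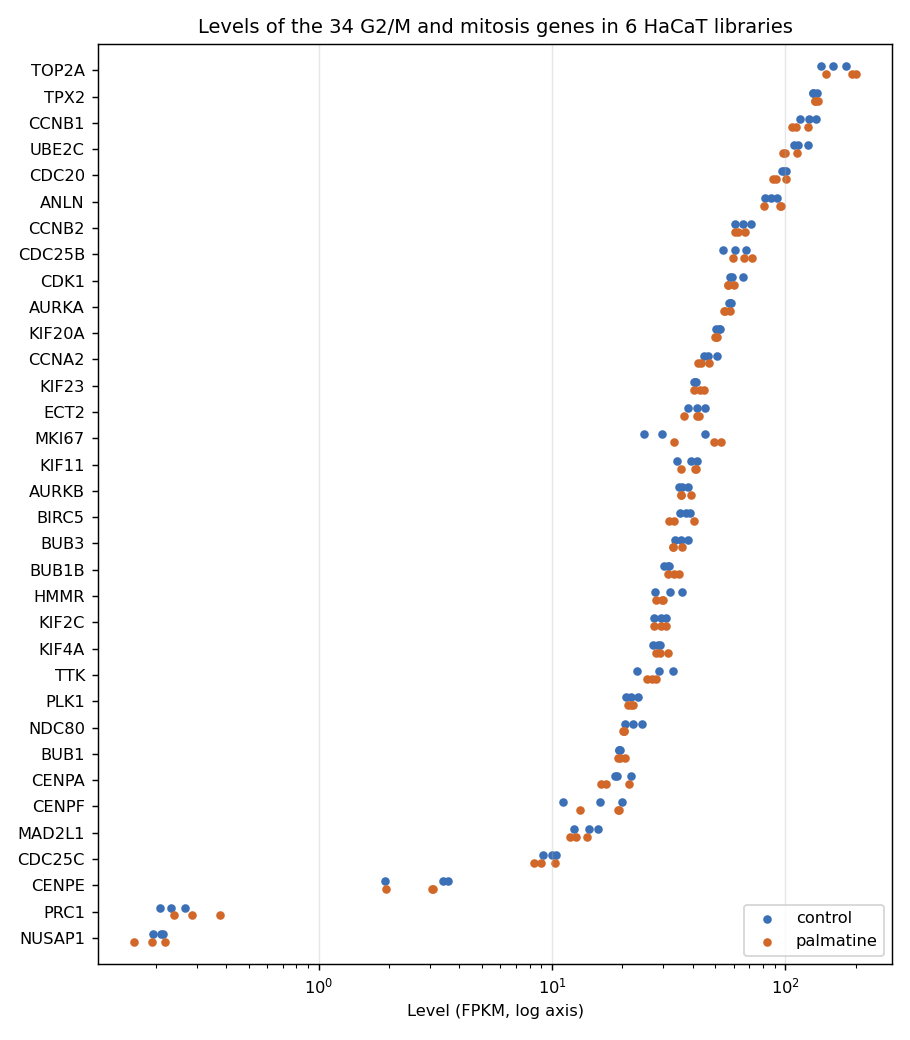
Level of each of the 34 genes in FPKM (log axis) in the 3 control (blue) and 3 palmatine (orange) libraries, 1 point per library, ordered by the mean. Levels run from 171 FPKM for TOP2A to 0.199 FPKM for NUSAP1, with PRC1 and NUSAP1 apart from the other 32 genes.

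The PRC1 row held 17, 18 and 19 counts in control and 36, 20 and 25 in palmatine libraries. NUSAP1 held 10, 11 and 10 counts in control and 10, 12 and 11 in palmatine libraries. Both rows share their locus and strand with another row of the same table. PRC1 (ENSG00000198901, chr15:90966040-90995629, minus strand) is covered over 99.5% of its length by ENSG00000284946 (chr15:90966190-91022566), an unnamed row with 122 to 245 counts per library, and NUSAP1 (ENSG00000137804, chr15:41320794-41381050, plus strand) over 99.9% by ENSG00000285920 (chr15:41284007-41380996), which held 0 counts in every library. In GENCODE 29, on GRCh38, another gene on the same strand shares 57.6% of the exon bases of PRC1 and 62.2% of those of NUSAP1.

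The same arrangement was looked for in the other cell cycle genes. Of 211 genes in the member list and 4 further cell cycle lists, 8 were covered over more than 50% of their locus by another same-strand row. These 8 included all 5 genes with a mean under 1 FPKM, namely PRC1, NUSAP1, the checkpoint gene MAD1L1, the MuvB subunit gene LIN37 and the APC/C subunit gene ANAPC10. FEN1, SPAG5 and POLA2 were covered as well but stood at 75.0, 19.2 and 1.93 FPKM. The other 203 genes ranged from 2.55 to 793 FPKM. The sources used here do not say how reads shared by overlapping rows were counted, and the part of the overlap in these values was not tested, so the PRC1 and NUSAP1 counts are uncertain.

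**Figure D2:**
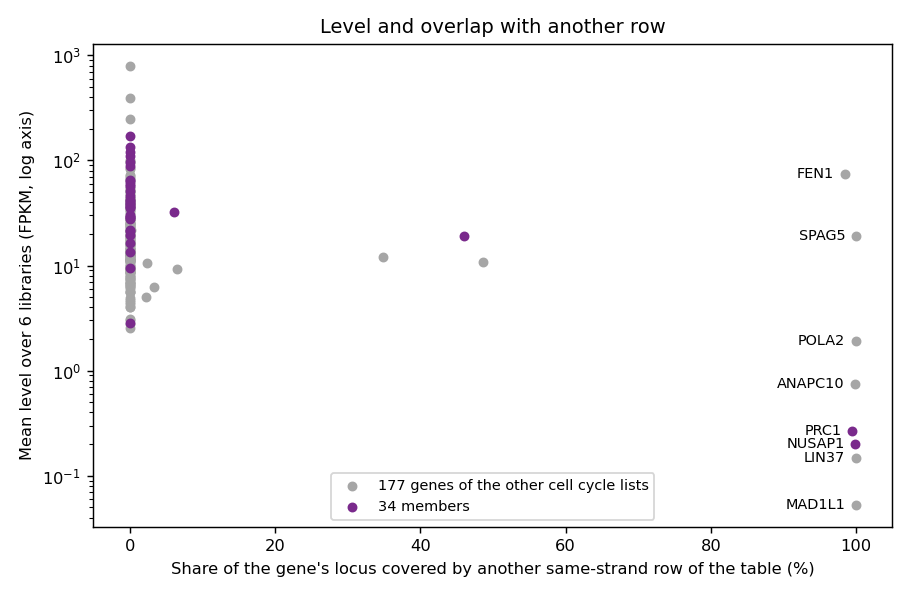
Mean level over 6 libraries (FPKM, log axis) of 34 members (purple) and 177 genes of the other cell cycle lists (grey) against the share of the locus covered by another same-strand row of the table. The 5 genes under 1 FPKM are among the 8 covered over more than 50% of their locus.

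The comparison of palmatine with control asked whether mitotic transcripts differ between the groups. None of the 34 genes passed an adjusted p of 0.05 in edgeR in either direction, where 0.0405% of the 12356 tested genes were called lower and 0% higher. All 34 passed the filter on low counts. DESeq2 and limma-voom also called 0 of the 34. At an unadjusted p under 0.05, 2 of the 34 (5.88%) were lower and 0 higher, against 4.69% and 5.13% of all tested genes, so the count of single genes was near the background. That count depended on single libraries, and so did the background. Without palmatine 2, 11 of the 34 were lower and 1 higher, against 13.5% and 12.5% of all tested genes. Without control 1, 6 of the 34 were lower and 1 higher, against 10.2% and 11.7%. Without control 2, 5 of the 34 were lower and 0 higher, against 2.06% and 2.29%. In these settings the share of members that were lower was above the background. The count lower was 0 without control 3, palmatine 1 or palmatine 3, against 1.33%, 1.04% and 1.32% of all tested genes.

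The small differences leaned in one direction. The log2 fold change was negative for 27 of the 34 genes (79.4%), against 50.4% of all tested genes. Its median was -0.11, against -0.00 over all tested genes. The 34 genes share the same 6 libraries and were chosen with earlier results of these data known. These shares are therefore a description and not a test. When libraries were scaled by their total counts alone, 20 of the 34 were negative against 35.3% of all tested genes, with medians of -0.05 and 0.06. In 5 genes (14.7%) every palmatine library was below every control library, against 5.71% of all tested genes; in 0 genes they were all above, against 6.68%. The sign of 10 members near 0 turned under at least 1 other setting: CDC25B, AURKB, BUB1, CENPF, KIF2C, KIF4A, KIF11, KIF23, TPX2 and ANLN. The 95% interval of the fold change stayed within 1.5-fold either way for 30 of the 34 genes, against 79.4% of all tested genes. It stayed within 2-fold for all 34, against 94.9% of all tested genes. No member passed, so a fall in mitotic RNA was not shown. Were there one, these bulk libraries could not tell fewer cells in G2 and M from less RNA per such cell.

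The lean was not shared by all libraries. The mean of the 34 genes, on the log2 CPM scale centred on each gene's mean over 6 libraries, was 0.05 in control 1, -0.04 in control 2 and 0.10 in control 3. It was -0.03, -0.05 and -0.02 in palmatine 1 to 3. Control 2 thus lay within the palmatine range, and control 3 stood highest. Without control 3 the median log2 fold change of the genes was -0.05 and 26 of the 34 were negative, and without palmatine 1 it was -0.07 with 30 negative.

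**Figure D3:**
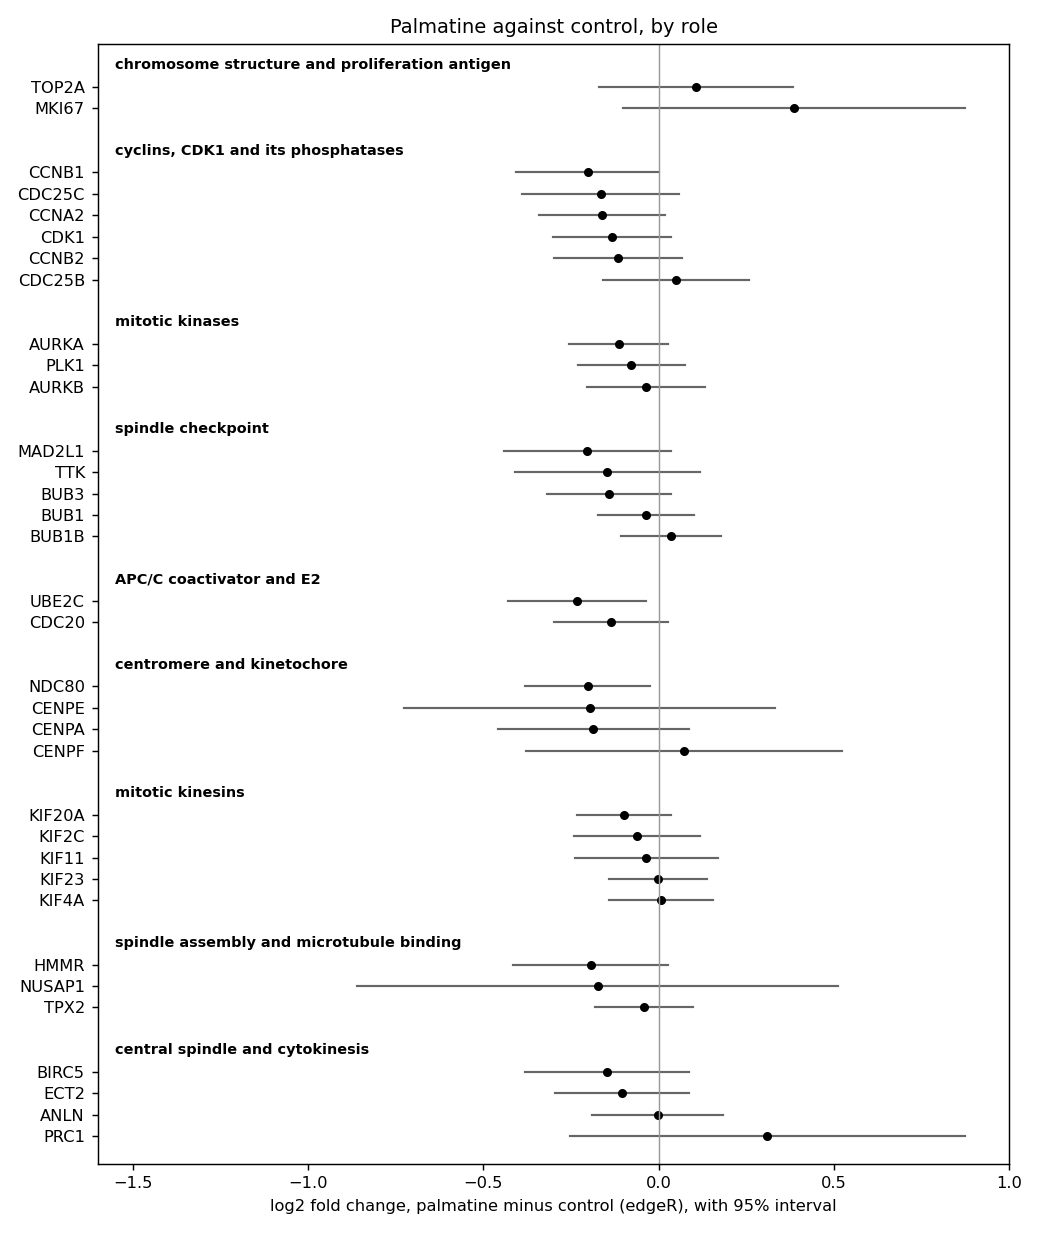
log2 fold change, palmatine minus control, of each of the 34 genes in edgeR, grouped by role; points are estimates and bars 95% intervals (n = 3 per group). MKI67 at 0.39 and PRC1 at 0.31 lie to the right of the other 32 points, and only the intervals of UBE2C and NDC80 leave out 0.

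UBE2C and NDC80 had the smallest p-values. UBE2C (ENSG00000175063, chr20:45812576-45816957, plus strand) was at 142, 149 and 166 CPM in control and at 120.5, 142 and 126 CPM in palmatine libraries. The highest palmatine library, replicate 2, equalled the lowest control to within 1 CPM. Its log2 fold change was -0.23 (SE 0.087; adjusted p = 0.455, edgeR). NDC80 (ENSG00000080986, chr18:2571557-2616635, plus strand), the microtubule-binding protein of the outer kinetochore, was at 79.8, 74.4 and 89.0 CPM in control and at 70.0, 70.6 and 70.7 CPM in palmatine libraries. Here the groups did not overlap, and the palmatine libraries were nearly equal. Its log2 fold change was -0.20 (SE 0.0791, adjusted p = 0.455, edgeR), or -0.13 without control 3. Over all 21 other settings tried it ran from -0.26 to -0.12.

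Of the 6 genes for CDK1, its cyclins and its activating phosphatases, 5 had negative values and 0 passed, with a median log2 fold change of -0.15. CCNB1 was at 286, 312 and 340.3 CPM in control and at 249, 299 and 266 CPM in palmatine libraries. Palmatine 2 lay between control 1 and control 2. The log2 fold change was -0.20 (SE 0.091; adjusted p = 0.455, edgeR). CCNA2, the cyclin of S phase and G2, was at 125, 130.4 and 145 CPM in control and at 115, 128 and 114 CPM in palmatine libraries, again with palmatine 2 inside the control range. CDK1, CCNB2 and CDC25C had log2 fold changes of -0.13, -0.12 and -0.16. CDC25B, a phosphatase of the same family that acts earlier in G2, was the exception at 0.05.

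All 3 mitotic kinase genes had small negative values. AURKA, which matures centrosomes and the spindle poles, was at 173, 172 and 174 CPM in control and at 155, 168 and 157 CPM in palmatine libraries. The groups did not overlap, and the log2 fold change was -0.11 (SE 0.0627; adjusted p = 0.459, edgeR). PLK1, a kinase with roles from mitotic entry to cytokinesis, had a log2 fold change of -0.08. AURKB, the kinase of the chromosomal passenger complex, had one of -0.04.

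Of the 5 spindle checkpoint genes, whose products delay anaphase until every kinetochore is attached, 4 had negative values. MAD2L1, the APC/C inhibitor at unattached kinetochores, was at 69.5, 81.1 and 89.7 CPM in control and at 67.4, 76.9 and 64.5 CPM in palmatine libraries, with overlapping groups and a log2 fold change of -0.20. Without control 3 it was -0.12, and over all 21 other settings tried it ran from -0.30 to -0.12. BUB3, a checkpoint protein that binds BUB1 and BUBR1, had a log2 fold change of -0.14, or -0.09 without control 3. Over those settings its log2 fold change ran from -0.21 to -0.07. The kinase gene TTK had one of -0.15, which was -0.014 without control 3 and -0.27 without control 2. The kinase gene BUB1 varied least of all members, from 120 to 125 CPM over 6 libraries, with a log2 fold change of -0.04. BUB1B, the gene of the BUBR1 checkpoint protein, was at 0.03.

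Beside UBE2C, the APC/C partner CDC20 was at 204, 202 and 201 CPM in control and at 172, 201 and 180 CPM in palmatine libraries. The groups were apart by under 1 CPM. The log2 fold change was -0.14 (adjusted p = 0.455, edgeR). Of the 16 genes for APC/C subunits, its other coactivator FZR1 and its inhibitor FBXO5, 0 passed and 14 were negative, with a median log2 fold change of -0.06. ANAPC11, the RING subunit, had the smallest p at a log2 fold change of -0.34 (adjusted p = 0.455, edgeR), ANAPC1 was at 0.21, and FZR1 at -0.01.

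Of the 4 centromere and kinetochore genes 3 had negative values, and CENPE and CENPF varied more over the 6 libraries than every other member but MKI67. CENPE was at 34.3, 19.5 and 36.7 CPM in control and at 29.2, 19.1 and 30.03 CPM in palmatine libraries. CENPF, a large kinetochore-associated protein, was at 236, 133 and 192 CPM in control and at 217, 151 and 220.1 CPM in palmatine libraries. In both genes the libraries numbered 2 stood lowest in each group. Their log2 fold changes were -0.20 (SE 0.235) for CENPE and 0.07 (SE 0.201) for CENPF, among the widest errors of the members. With 1 library left out CENPE ranged from -0.44 without control 2 to -0.015 without palmatine 2, and CENPF from -0.12 without control 2 to 0.27 without control 1. CENPA, the histone H3 variant that marks centromeres, had a log2 fold change of -0.19.

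Of the 5 mitotic kinesin genes 4 had negative values, with a median log2 fold change of -0.04. KIF20A, which carries the passenger complex to the midzone, was at 205, 198 and 205 CPM in control and at 186, 194 and 189 CPM in palmatine libraries. The groups did not overlap, and the log2 fold change was -0.10 (adjusted p = 0.476, edgeR). The microtubule depolymerase KIF2C and the spindle bipolarity motor KIF11 were at -0.06 and -0.04. The midzone motors KIF23 and KIF4A were at -0.00 and 0.01, with intervals from -0.14 to 0.14 and from -0.14 to 0.15.

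Among spindle assembly factors, TPX2 was at 502, 484 and 490 CPM in control and at 479, 478 and 476 CPM in palmatine libraries. The groups were apart, but the log2 fold change was only -0.04 (adjusted p = 0.762, edgeR). HMMR, a spindle microtubule-associated protein, was at 127, 111 and 146 CPM in control and at 113, 109 and 114 CPM in palmatine libraries. Its log2 fold change was -0.19, or -0.09 without control 3, and ran from -0.29 to -0.09 over all 21 other settings tried. NUSAP1, at under 1 CPM in every library, had one of -0.17 with an interval from -0.86 to 0.51.

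Of the 4 genes of the central spindle and cytokinesis, BIRC5, the survivin subunit of the chromosomal passenger complex, was at 137, 147 and 153 CPM in control and at 116, 153 and 125 CPM in palmatine libraries, a log2 fold change of -0.15. Palmatine 2 was level with the highest control library, and the value was -0.27 without palmatine 2 and -0.07 without palmatine 1. ECT2, which activates RhoA at the division plane, had a log2 fold change of -0.11, and ANLN, the contractile ring scaffold anillin, one of -0.00. PRC1 had one of 0.31, on the 17 to 36 counts described above, or 0.12 without palmatine 1. Over the 18 other settings that could test PRC1, its value ran from 0.07 to 0.44.

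MKI67 and TOP2A, the proliferation antigen of the chromosome surface and the topoisomerase, were the largest positive values apart from PRC1. MKI67 (ENSG00000148773, chr10:128096659-128126423, minus strand) was at 588, 389.6 and 328 CPM in control and at 655, 424 and 627 CPM in palmatine libraries. Control 1, palmatine 1 and palmatine 3 stood high and the other 3 libraries low, so the groups overlapped. The log2 fold change was 0.39 (SE 0.217; adjusted p = 0.459, edgeR), and it was 0.66 without control 1 and 0.22 without control 3. TOP2A had the same high libraries, with 1177, 925 and 1049 CPM in control and 1237, 941 and 1214 CPM in palmatine libraries, and a log2 fold change of 0.11. With 1 library left out its value ranged from 0.022 without control 2 to 0.22 without palmatine 2. MKI67 had the widest range over the libraries of all 34 genes, 1.00 on the log2 scale, against 0.07 for BUB1 and 0.08 for TPX2, the narrowest.

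The members' differences followed gene length. MKI67 is the longest of the 34 in the table, at 12845 bases, and UBE2C the shortest, at 1286 bases. Across the 34 genes, which share the same libraries, the Spearman correlation of the log2 fold change with length was 0.49, and it was 0.44 across all tested genes. Within a library, the Spearman correlation of the centred level with length over the 34 genes was 0.72 in palmatine 1, 0.68 in palmatine 3 and 0.29 in control 1. It was -0.64 in control 2, -0.26 in control 3 and -0.71 in palmatine 2. The libraries where MKI67 stood high were thus those where longer members in general did. Over all tested genes the same correlation was 0.49 in palmatine 1, 0.43 in palmatine 3 and 0.20 in control 1. In control 2, control 3 and palmatine 2 it was -0.40, -0.39 and -0.33.

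GC share moved with the libraries as well. The Spearman correlation of the centred level with the GC share of the longest transcript, over the 34 genes, was 0.42 in control 2 and 0.49 in palmatine 2, and it lay between -0.45 and -0.11 in the other 4 libraries. Over all tested genes it was 0.17 in control 2, 0.36 in palmatine 2 and 0.09 in control 1. In control 3, palmatine 1 and palmatine 3 it was -0.23, -0.05 and -0.11. CENPE, the member with the lowest GC share at 35.3%, was the lowest centred member in palmatine 2, and CENPF was the lowest in control 2.

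With a length trend removed from each library, the median log2 fold change of the 34 genes was -0.06 instead of -0.11, with 27 of 34 negative against 54.7% of all tested genes. The median over all tested genes was then -0.02. The members' median minus that of all tested genes was -0.047, instead of -0.108 in the main fit. UBE2C moved from -0.23 to -0.06, CDC20 from -0.14 to -0.02 and MKI67 from 0.39 to 0.28. BUB3 went the other way, from -0.14 to -0.21, CENPE from -0.20 to -0.29, and MAD2L1 from -0.20 to -0.23. None was called. With length and GC trends removed together, a setting chosen after seeing the data, 24 of 34 were negative against 52.9% of all tested genes, and the median was again -0.06. The part of RNA quality or library preparation in the length trend was not tested.

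**Figure D4:**
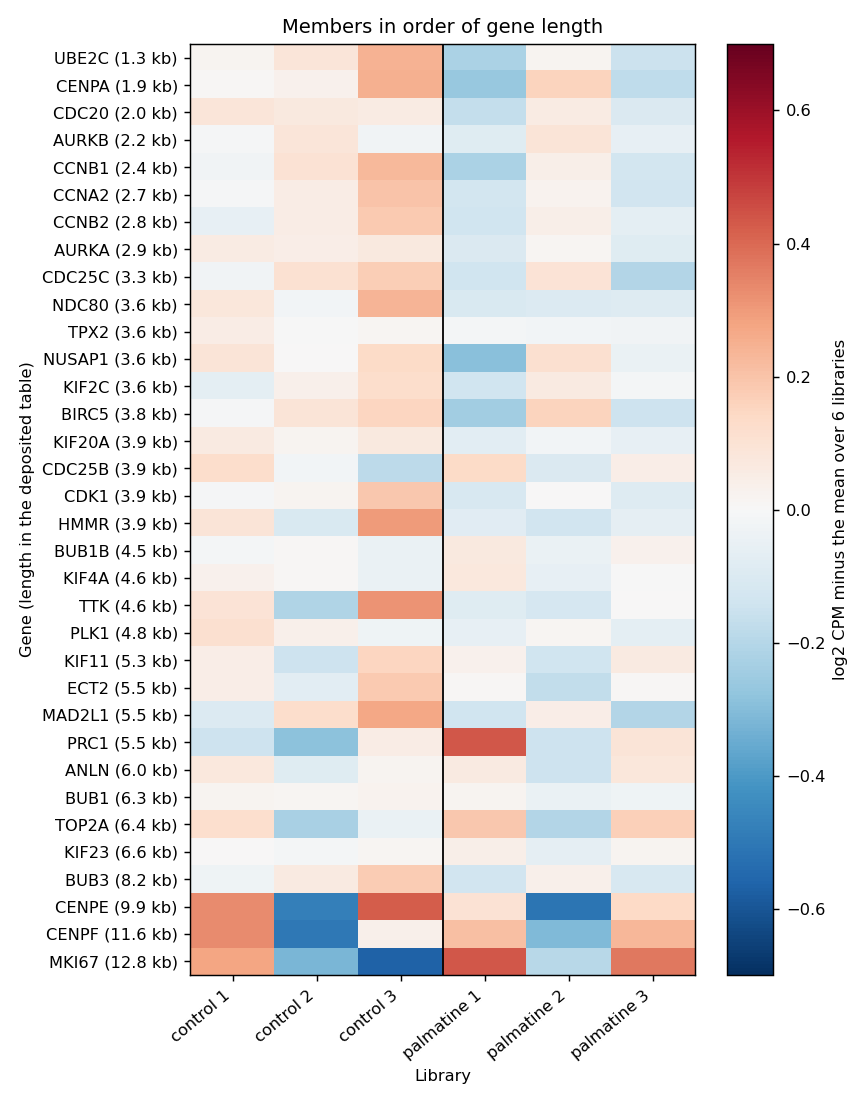
log2 CPM of each of the 34 genes minus its mean over the 6 libraries (red higher, blue lower), with genes from the shortest (UBE2C, top) to the longest (MKI67, bottom) and control libraries left of the line. The shortest genes are lowest in palmatine 1 and palmatine 3, the longest are lowest in control 2, palmatine 2 and, for MKI67, control 3.

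The differences were set beside the promoter elements, with no test. The 22 genes with a homology region match had a median log2 fold change of -0.06, from -0.20 to 0.39, and 15 of them were negative. The 6 genes without one had a median of -0.13, from -0.20 to -0.04, and all 6 were negative. Only TTTGAA and TTCGAA were searched, so these 6 genes are not shown to lack the element. UBE2C, the shortest member, had no promoter sequence and is in neither group. The group with a match holds MKI67, the longest member, and the uncertain PRC1 and NUSAP1 rows. The part of gene length in the difference between these groups was not tested.

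Other mitotic genes outside the list leaned in the same direction in the main fit. Of 73 such genes 72 were tested, 0 passed, and 51 were negative (70.8%), with a median log2 fold change of -0.07. At an unadjusted p under 0.05, 4 (5.56%) were lower and 0 higher, against 4.69% and 5.13% of all tested genes. CENPM, a centromere protein gene, had the smallest p. Its level was 16.3 ± 0.976 CPM (SD, n = 3) without and 13.4 ± 1.73 CPM with palmatine (adjusted p = 0.455, edgeR). PTTG1, which encodes securin, the inhibitor of separase, had a log2 fold change of -0.24, and INCENP, the scaffold of the chromosomal passenger complex, had the smallest p of the positive values at 0.18. CENPM and PTTG1 are 1750 and 1975 bases long, and INCENP is 4454. For this list, the APC/C list and the lists below, values are from the main fit, with no length trend removed. The part of gene length in them was not tested. MAD1L1 was not tested, with 3 to 9 counts per library.

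The regulators of mitotic transcription did not pass either. Of 28 listed regulators of G2/M transcription and entry, 27 were tested and 0 passed. Of the 27, 15 were negative, and the median log2 fold change was -0.01. At an unadjusted p under 0.05, 2 (7.41%) were lower and 2 higher, against 4.69% and 5.13% of all tested genes. FOXM1 was at 139, 126 and 111 CPM in control and at 151, 135 and 144 CPM in palmatine libraries, with overlapping groups and a log2 fold change of 0.19 (adjusted p = 0.455, edgeR). Its sign was opposite to that of most of the mitotic genes, but its interval ran from -0.013 to 0.398 and included 0. FOXM1 was highest in palmatine 1, palmatine 3 and control 1, the libraries where MKI67 and longer members stood high. The part of gene length in the FOXM1 value was not tested. MYBL2 had a log2 fold change of -0.07 and CDKN1A, the p21 inhibitor of cyclin-dependent kinases, one of -0.12. CDKN3, a phosphatase that acts on CDKs, had the smallest p of the regulators at -0.32, and RBL2, the p130 subunit of DREAM, the smallest p of the positive values at 0.19. The adjusted p was 0.455 for both (edgeR). CDKN3 is 1829 and RBL2 8110 bases long.

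Among the G1/S and DNA replication genes, all 60 were tested and 0 passed. Of the 60, 38 were negative (63.3%), with a median log2 fold change of -0.03. At an unadjusted p under 0.05, 3 (5%) were lower and 0 higher, against 4.69% and 5.13% of all tested genes. SLBP, which binds the histone mRNA stem-loop, had a log2 fold change of -0.21, and POLE, the catalytic subunit of a replicative polymerase, one of 0.25. Both had the same adjusted p, 0.455 (edgeR). SLBP is 1884 and POLE 12364 bases long. The difference between this list and the mitotic genes was not tested.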

How the data were processed

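Poly(A)-selected RNA of 6 HaCaT libraries was sequenced, and libraries were grouped by title. For each gene the authors deposited the raw read count and the FPKM, per the file headers. The submitters' processing notes list HISAT2 2.1.0 and HTSeq 0.9.1. The sources used here do not give the build, annotation, strand setting or handling of multi-mapped and overlapping reads. The deposited FPKM equalled count over length and total count (relative tolerance 1e-05) for 100% of values above 0. Of the table's gene IDs 19851 were found in GENCODE 29, and 100% of these lay at the same locus and strand (GRCh38).

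Genes were kept with filterByExpr (minimum count 10), scaled by TMM (factors 0.970 to 1.04) and compared with the quasi-likelihood test in edgeR 4.0.16 (R 4.3.3, robust, no covariates, two-sided, Benjamini-Hochberg over 12356 genes, threshold 0.05). Levels in CPM use TMM-scaled sizes, except marker sums, which use total counts. Centred levels use log2 CPM with a prior count of 2; trends were per-library loess fits (span 0.3). Chi-square per degree of freedom between libraries was at least 3.26, so none was a copy. Same-numbered libraries deviated together with correlations of 0.40, 0.18 and -0.10, so the numbers were not taken to pair them. The fit was tested on simulated data. Members and lists were chosen with earlier results of these data known; all 34 members are named, and of the other lists the smallest p in each direction plus FOXM1, MYBL2, CDKN1A, PTTG1 and FZR1. Genes named for overlap or low level were chosen after their values were seen. Intervals cover these samples' spread only.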

Additional observations from a re-analysis of the deposited data

How the results depend on the processing

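Over 21 alternatives with a fit, 0 of the 34 members were called, and the lowest adjusted p was 0.117 (length trend removed with the replicate number as a block). Of the members, 24 kept the sign of the log2 fold change under every alternative that could test them and 10 did not, all with values near 0. With library size alone the sign turned for AURKB (0.028), BUB1 (0.029), KIF2C (0.00018), KIF11 (0.029), KIF23 (0.061), TPX2 (0.022) and ANLN (0.061). With limma on log2(FPKM + 1), filtered or not, the same genes gave 0.027, 0.026, 0.00038, 0.029, 0.058, 0.021 and 0.057, and with log2(FPKM + 0.1) 0.028, 0.028, 0.00039, 0.030, 0.059, 0.022 and 0.058. Upper-quartile scaling gave -0.0044 for KIF4A. With the length trend removed AURKB was at 0.067 and CENPF at -0.033, with the block added at 0.067 and -0.017, and with length and GC trends removed AURKB, KIF11 and ANLN were at 0.034, 0.0070 and 0.0050. Leaving out 1 library at a time gave ranges of -0.025 to 0.13 for CDC25B, -0.12 to 0.27 for CENPF, -0.030 to 0.038 for KIF4A, -0.11 to 0.032 for KIF11, -0.025 to 0.028 for KIF23 and -0.047 to 0.067 for ANLN.

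The members' median log2 fold change ran from -0.12 to -0.05 with 1 library left out, and was -0.037 with unfiltered log2(FPKM + 1); with library size alone it was -0.05, with 20 of 34 negative against 35.3% of all genes. Over all genes the 5 lower calls became 14 with DESeq2, 8 with no count filter, 3 with unfiltered FPKM, 8 with the length trend or both trends removed, 8 at a threshold of 0.10, and 9 with the replicate block; the block with the length trend removed gave 23 lower and 3 higher. The block, whose numbers were not shown to pair the samples, gave 0 members called. At an unadjusted p under 0.05 it gave 7 of 34 members lower, a larger share than the 9.995% of all genes. It gave 1 member higher, against 10.3% of all genes. Only replicates 1 and 2 correlated best with their own number. The cause of these shifts was not tested. PRC1 and NUSAP1 were not tested with a minimum count of 30 or an FPKM filter.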
